A study of Mus musculus with 27 samples.

Results

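Complement and blood coagulation are served by plasma proteins that are made mainly in the liver. The genes described here are 39 mouse genes of these systems, of the 54532 genes in the deposited table. They were taken by gene name: 19 belong to complement and 20 to coagulation and fibrinolysis. All 39 passed the filter on low values, an FPKM (fragments per kilobase of gene, scaled by library size) of at least 1 in at least 4 libraries, which 12376 genes passed in all. Liver RNA of wild-type C57/BL6J mice was sequenced in 27 libraries. The 4 resected groups had undergone a resection of 70% of the liver (partial hepatectomy, PHx): 48 h after resection with etomoxir (PHx48_ETO, n = 4), 48 h without it (PHx48, n = 7), 24 h with etomoxir (PHx24_ETO, n = 4) and 24 h without it (PHx24, n = 7). The fifth group was sham operated (sham, n = 5), with no time given in its sample labels. Etomoxir, an irreversible inhibitor of carnitine palmitoyltransferase 1, was injected intraperitoneally 4 h ahead of surgery at 12.5 mg/kg, with one more dose at 24 h in the mice kept to 48 h. There was no sham group with etomoxir, and the labels do not say whether the other mice received a vehicle. Nor is it said that the libraries stem from different mice, so the p-values cover the spread of these libraries, which may in part be technical.

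As background, complement is a cascade of proteases and pore-forming proteins that marks microbes and damaged cells for removal. The classical pathway (C1r, C1s, C4, C2) and the lectin pathway (mannose-binding lectins and their proteases MASP-1 and MASP-2) both lead to cleavage of C3, and the terminal components C5 to C9 then assemble into the membrane attack complex. In coagulation, protease zymogens activate each other until prothrombin becomes thrombin, which turns fibrinogen into fibrin. Protein C, protein S and antithrombin hold the cascade back, and plasmin, made from plasminogen, dissolves the clot. Hepatocytes secrete most of these proteins, C3 is an acute-phase gene of the liver, and the liver remnant after resection has to keep up their supply while its hepatocytes divide.

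The libraries held 14903757 to 18446372 counts. The summed FPKM of 9 hepatocyte marker genes was 46147 ± 4644 in PHx48_ETO, 39245 ± 4974 in PHx48, 35648 ± 2769.8 in PHx24_ETO, 31801 ± 3723 in PHx24 and 51563 ± 15687 in sham (SD). Of these 9 marker genes, 5 were called lower and 0 higher in PHx48 than in sham, against 17.0% and 19.5% of all genes tested. In PHx24, 5 were called lower and 1 higher than in sham, against 15.8% and 19.1% of all genes. The part of hepatocyte RNA in the levels of the members was not tested. In bulk liver, fewer cells of a type and less RNA per cell cannot be told apart. A pair of libraries stood apart in the member genes. In PHx24_ETO 2, 35 of 39 members had the lowest FPKM of that group and 27 the lowest of all 27 libraries. In sham 1, which also held the highest skeletal muscle marker sum (4453 FPKM over 10 genes), 35 of 39 members had the lowest FPKM of the sham group. Muscle markers also stood out in PHx24 1 and PHx48 3 and pancreas markers in sham 2, and calls that change without these 4 libraries are given beside the member.

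Promoter sequences are shown for 4 members called against sham at both times: C3 and Pros1, the members called higher at both, and Klkb1 and C6, which had the lowest log2 fold changes at both. They are the bases before the annotated gene start, 5′ to 3′ on the gene's own strand, from RefSeq (GRCm38.p6). Capitals mark a match to 1 of 5 short motifs searched on both strands.
C3, chr17:57228137-57228386, minus strand: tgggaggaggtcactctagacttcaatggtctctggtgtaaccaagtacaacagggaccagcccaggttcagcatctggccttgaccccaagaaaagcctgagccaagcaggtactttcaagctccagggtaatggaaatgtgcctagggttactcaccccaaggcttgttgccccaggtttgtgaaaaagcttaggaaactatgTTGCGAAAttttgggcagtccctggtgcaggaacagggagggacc
Pros1, chr16:62854057-62854306, plus strand: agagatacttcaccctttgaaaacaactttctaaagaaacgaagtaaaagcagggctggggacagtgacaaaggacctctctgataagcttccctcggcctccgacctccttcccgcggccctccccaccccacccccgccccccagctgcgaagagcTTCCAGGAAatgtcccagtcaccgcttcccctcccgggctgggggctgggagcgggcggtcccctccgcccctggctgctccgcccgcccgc
Klkb1, chr8:45294860-45295085, minus strand: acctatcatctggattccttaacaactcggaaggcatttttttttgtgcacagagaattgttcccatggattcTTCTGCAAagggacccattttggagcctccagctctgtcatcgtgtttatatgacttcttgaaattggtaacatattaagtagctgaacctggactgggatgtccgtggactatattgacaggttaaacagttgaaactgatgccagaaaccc
C6, chr15:4726960-4727174, plus strand: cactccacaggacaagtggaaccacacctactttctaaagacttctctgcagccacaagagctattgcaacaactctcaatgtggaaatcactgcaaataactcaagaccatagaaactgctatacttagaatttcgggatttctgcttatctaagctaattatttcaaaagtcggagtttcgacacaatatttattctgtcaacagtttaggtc
The capitals in C3 and Klkb1 match a C/EBP motif (TTGCNNAA), with the first base of the match at -45 in C3 and at -177 in Klkb1 from the RefSeq start. The capitals in Pros1 match a STAT motif (TTCNNNGAA) at -92. C6 held no match. RefSeq promoter windows, 250 bases before to 50 after the start, were on hand for 30 of the 39 members. The C/EBP motif was in 33.3% of these members and in 12.2% of the 27025 genes with a window, and the STAT motif in 20% of the members and 9.55% of the genes. An HNF1 motif (GTTAATNAT) was in 10% of the members (C4bp, F13b and Hc) and 0.94% of the genes. The NF-kB motif (GGGANNTTC) was in 6.67% of the members and 4.47% of the genes, and the HNF4 motif (CAAAGTCCA) in 0 of 30 members and 0.555% of the genes. A C/EBP match was thus found both in a member that was higher and in one that was lower after resection. Such matches describe the letters of the window and are no evidence of binding.

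Levels differed widely between the members. By mean FPKM over all libraries, which is per length, C3 was highest (1716), followed by Vtn (1399), the adhesive plasma protein vitronectin, and Kng1 (533), a kininogen. The lowest were Masp1 (14.3), C2 (7.14) and Cfb (3.08), which encodes complement factor B. Of the exon bases of C2 and Cfb, 46.9% and 79.5% also belong to Gm20547, an annotated locus on the same strand. The low places of C2 and Cfb are therefore uncertain. In PHx24 livers C3 (2209.8 ± 295 FPKM) stood above Vtn (1548 ± 98.8 FPKM), whereas in sham livers C3 (996 ± 142 FPKM) stood below Vtn (1473 ± 181 FPKM; SD, n = 7 PHx24 and 5 sham). The ranges of C3 and Vtn overlapped in sham (lowest Vtn 1198, highest C3 1236 FPKM) and did not in PHx24.

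After resection many members were lower and few higher: the log2 fold change against sham was below 0 for 33 of 39 members in PHx48 and for 30 in PHx24. At 24 h, 16 of 39 members were lower and 3 higher in PHx24 than in sham (edgeR's quasi-likelihood test, Benjamini-Hochberg adjustment over all genes, adjusted p under 0.05), where 15.8% of all genes tested were called lower and 19.1% higher. At 48 h, 20 were lower and 2 higher in PHx48 than in sham, against 17.0% and 19.5% of all genes. The median log2 fold change of the 39 members was -0.43 at 48 h and -0.33 at 24 h, beside medians of 0.0095 and 0.00817 over all genes tested. The FPKM of the resected and sham livers did not overlap for 16 members (41.0%) at 48 h and for 7 (17.9%) at 24 h, against 19.9% and 17.7% of all genes, so that at 24 h this share was that of the background. On a TPM scale, where values of each library sum to a fixed total, the median of all genes moved up by 0.324 at 48 h and 0.191 at 24 h. There the members' medians were -0.06 and -0.12, and 9 members were lower and 5 higher at 48 h, 8 lower and 4 higher at 24 h (limma). In TPM, 5.29% of all genes were lower and 46.0% higher at 48 h, and 7.24% lower and 30.7% higher at 24 h. In TPM the calls of C1s1, C9 and Serpinc1 were lost at both times, those of Masp2, F11, F12, F13b and Serpinf2 at 24 h, and those of C8a, Masp1, Mbl1, Serping1, F2, F9, Kng1 and Plg at 48 h. With no filter on low values, those of C9, Masp2, F11, F12, F13b, Kng2, Serpinc1 and Serpinf2 were lost at 24 h and those of C8a, F9, Kng1 and Plg at 48 h. No called member changed sign in TPM, but the medians of small role groups did: in TPM that of the complement inhibitors was above 0 at both times, as was that of the fibrinolysis genes, that of the lectin pathway at 24 h and that of the anticoagulants at 48 h.

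**Figure D1:**
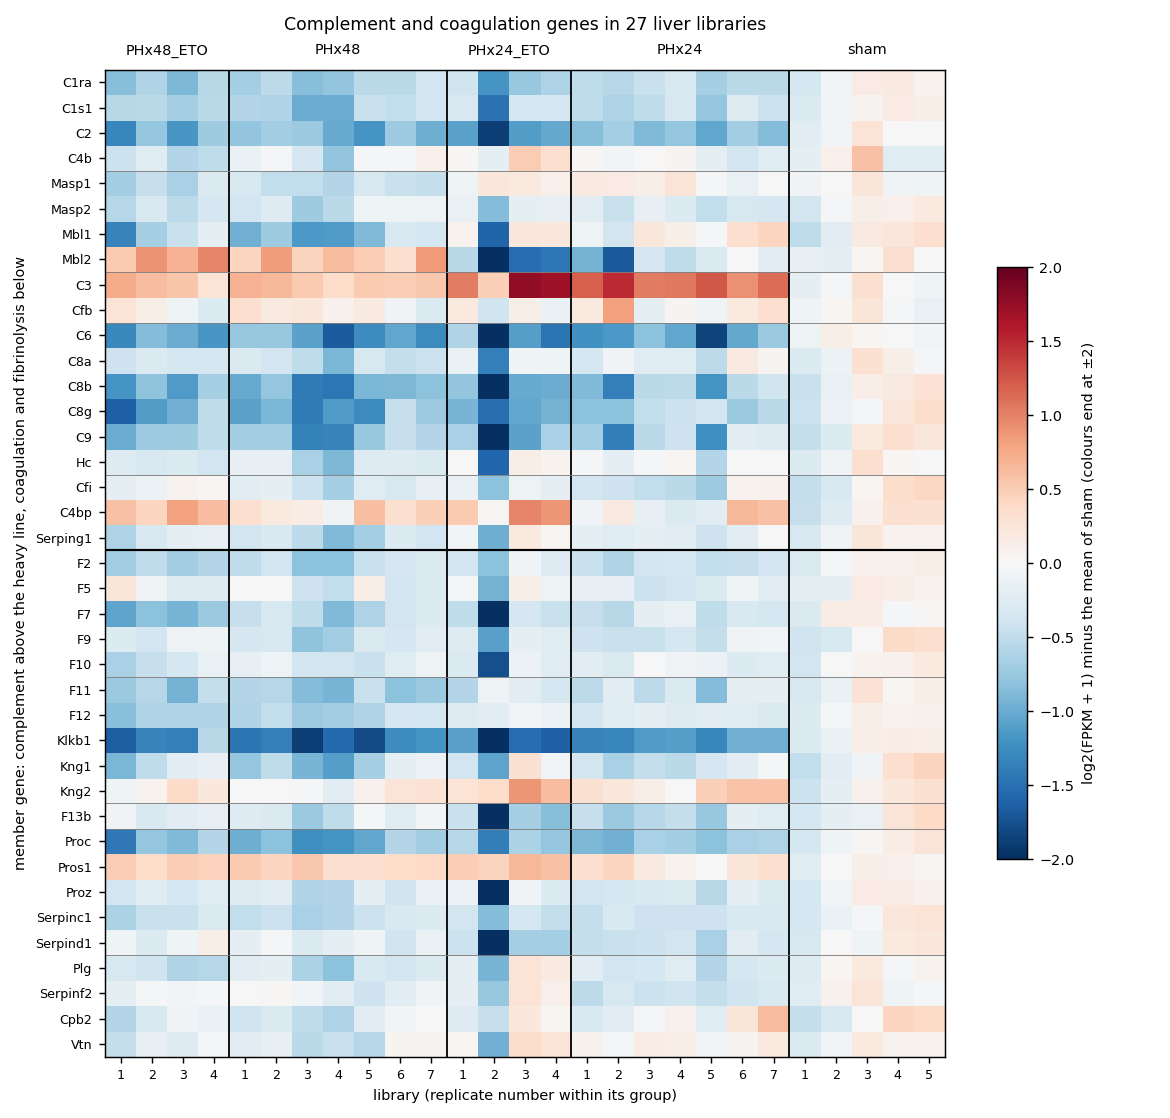
Each row is a member gene and each column a library, grouped as labelled on top; the colour is log2(FPKM + 1) minus the mean of the 5 sham libraries, with colours ending at 2 and -2. C3 is red and Klkb1, C6, C8b and C2 are blue over the resected groups. Pros1 is mostly red there, with PHx24 4 and PHx24 5 near the sham mean. The column PHx24_ETO 2 is darker blue than its neighbours in most rows.

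Of the 4 classical pathway members, 3 were lower in PHx48 than in sham and the same 3 in PHx24 than in sham. C2, a serine protease zymogen that C1s cleaves, averaged 6.3 ± 0.879 FPKM in PHx48, 6.5 ± 0.644 FPKM in PHx24 and 12.3 ± 1.68 FPKM in sham (SD, n = 7, 7 and 5). Its log2 fold change against sham was -0.95 at 48 h and -0.90 at 24 h (adjusted p = 1.71e-05 and 3.98e-05), with no overlap with sham at either time. C1ra and C1s1, the proteases of the C1 complex, were lower too, with log2 fold changes of -0.61 and -0.62 at 48 h and -0.50 and -0.47 at 24 h. C4b, the fourth component, was not called (-0.18 and -0.13; adjusted p = 0.393 and 0.568). Reads of C2 cannot be fully told from those of Gm20547, an annotated locus on the same strand that covers 46.9% of its exon bases and was listed at 0 in every library. Of the 50-base stretches of C1ra, C1s1 and C4b, 50.8%, 35.1% and 34.6% also occur in other genes, on either strand. The genes sharing most of them were the paralogs C1rb, C1s2 and C4a. C1s1 also shares 18.4% of its exon bases with Gm16567 on the other strand. The values of these members are uncertain to that extent.

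C3, the protein on which the pathways converge, was higher after resection. C3 (GRCm38 chromosome 17, 57203970 to 57228136) lay between 1274 and 1610.0 FPKM with a median of 1424 in PHx48 and between 1864 and 2782 FPKM with a median of 2142 in PHx24, against 864, 966, 1236, 984 and 932 FPKM in sham 1 to 5. Every resected library without etomoxir thus lay above every sham library. The log2 fold change was 0.56 at 48 h (SE 0.17, adjusted p = 0.0121) and 1.17 at 24 h (SE 0.17, adjusted p = 1.23e-05). Without the 4 libraries with muscle or pancreas markers, the call at 48 h was lost (log2 fold change 0.47, adjusted p = 0.113). Factor B, the C3 convertase protease of the alternative pathway, was low in every group and not called: Cfb averaged 3.13 ± 0.56 FPKM in PHx48, 3.5 ± 1.13 in PHx24 and 2.86 ± 0.413 in sham. It shares 79.5% of its exon bases with Gm20547, so its level is uncertain.

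The terminal components, which build the membrane attack complex, were mostly lower. Of the 6 (Hc, which encodes C5, and C6, C8a, C8b, C8g and C9), 5 were lower at 48 h and 4 at 24 h, with medians of -0.90 and -0.61 on the log2 scale. C6 (GRCm38 chromosome 15, 4727175 to 4814967) lay between 32.6 and 61.7 FPKM with a median of 49.3 in PHx48 and between 28.5 and 62.3 FPKM with a median of 50.5 in PHx24, against 98.2, 114, 109, 105 and 101 FPKM in sham 1 to 5. No resected library without etomoxir reached the lowest sham value (log2 fold change -1.09, SE 0.25, adjusted p = 0.00115 at 48 h; log2 fold change -1.09, SE 0.25, adjusted p = 0.00132 at 24 h). C8b, the beta chain of C8, lay between 83 and 133 FPKM with a median of 121 in PHx48 and between 87.1 and 172 FPKM with a median of 156 in PHx24, against 166, 204, 249, 257 and 277 FPKM in sham 1 to 5. The PHx48 libraries lay below all sham libraries, whereas the highest PHx24 value exceeded that of sham 1. The log2 fold change was -1.03 at 48 h and -0.74 at 24 h (adjusted p = 2.33e-04 and 0.00521).

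C8g, the gamma chain, averaged 171 ± 40.6 FPKM in PHx48, 223 ± 28.5 in PHx24 and 342 ± 71.7 in sham, with log2 fold changes of -0.98 and -0.59. C9, which polymerises into the pore, averaged 194 ± 44, 222 ± 64.5 and 347 ± 80.1 FPKM in the same order of groups. Its call at 24 h (-0.62, adjusted p = 0.0414) was lost when any 1 of sham 3, sham 4, sham 5, PHx24 1, PHx24 2, PHx24 3 or PHx24 5 was left out, whereas that at 48 h (-0.82, adjusted p = 0.0075) was not lost in any of 12 such fits. C8a, the alpha chain, was called at 48 h (-0.46, adjusted p = 0.0282), and not without sham 3 or without PHx48 4. Hc was not called, with 128 ± 22.4 FPKM in PHx48, 153 ± 21.1 in PHx24 and 166 ± 25.2 in sham (log2 fold changes -0.36 and -0.09). When the compared groups were fitted alone, Hc was called lower at 48 h (-0.38, adjusted p = 0.044). The alpha and beta chains of C8 are neighbours on chromosome 4, with 11.1 kb between them, and differed in size of change (-0.46 for C8a and -1.03 for C8b at 48 h), a difference that was not tested.

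Of the soluble complement inhibitors, Serping1, the C1 inhibitor that also restrains kallikrein and factor XII, was lower at 48 h (log2 fold change -0.47, SE 0.14, adjusted p = 0.0108). Cfi, the protease factor I that degrades C3b and C4b, and C4bp, its cofactor, were not called (at 48 h -0.33 and 0.29, at 24 h -0.33 and 0.14). In TPM C4bp was called higher at 48 h (limma). Cfi was called lower at both times without sham 1 (log2 fold changes of -0.44 at 48 h and -0.45 at 24 h) and without the 4 libraries with muscle or pancreas markers (-0.55 and -0.56; adjusted p = 0.02 and 0.019). At 24 h it was also called without PHx24 6, without PHx24 7 and with the replicate number as a block.

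**Figure D2:**
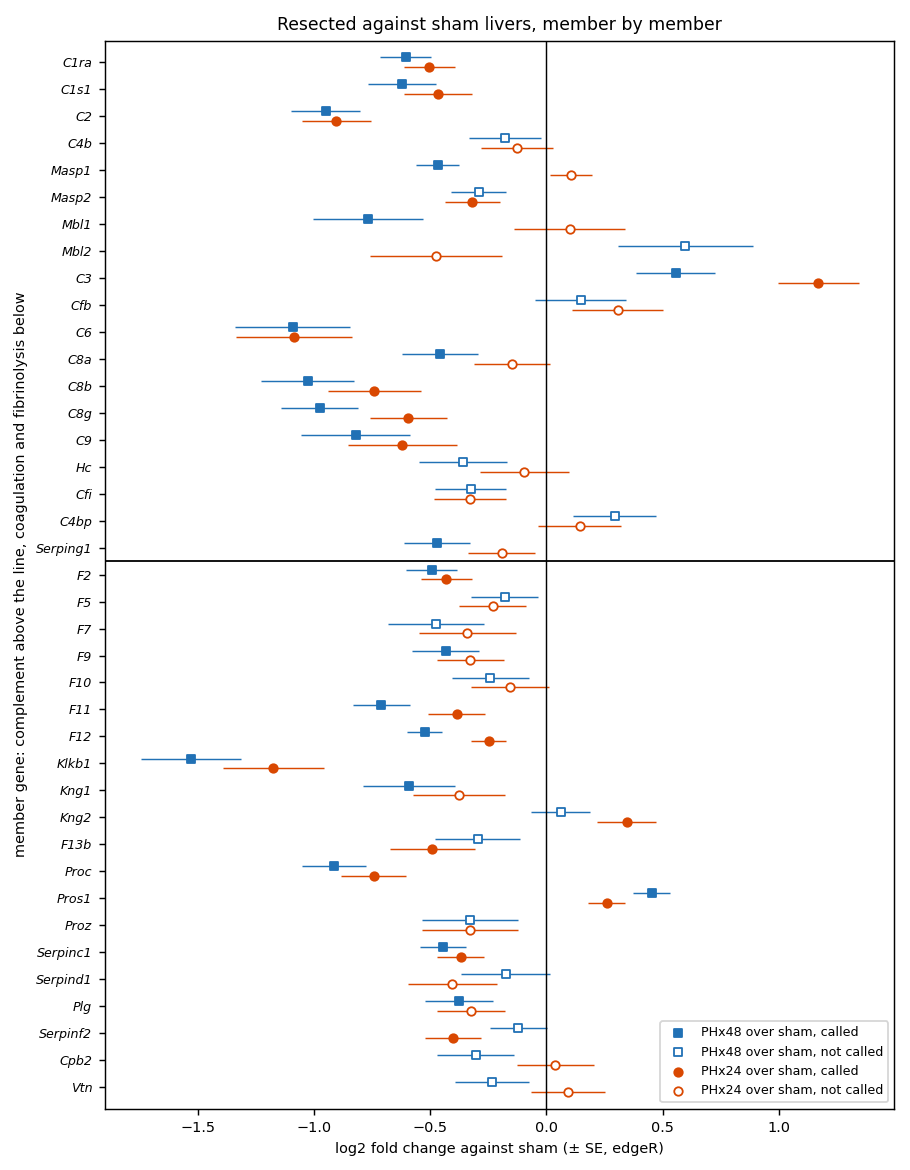
Log2 fold change against sham for each member, PHx48 as squares and PHx24 as circles, with bars of 1 SE; filled points passed an adjusted p under 0.05 (edgeR). Most points lie left of 0; C3 and Pros1 at both times and Kng2 at 24 h are filled to the right, and Klkb1 lies farthest left at -1.53 and -1.17.

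Of the 5 contact system members, 4 were lower in PHx48 than in sham, and 3 were lower and 1 higher in PHx24 than in sham. Klkb1, which encodes plasma prekallikrein, a protease zymogen that releases bradykinin from kininogen (GRCm38 chromosome 8, 45266689 to 45294859), lay between 12.1 and 20.2 FPKM with a median of 16.5 in PHx48 and between 18.2 and 24 FPKM with a median of 21.1 in PHx24, against 38.8, 43.2, 52.3, 52.6 and 52.4 FPKM in sham 1 to 5. Every resected library without etomoxir was below every sham library (log2 fold change -1.53, SE 0.22, adjusted p = 4.81e-06 at 48 h; log2 fold change -1.17, SE 0.22, adjusted p = 1.44e-04 at 24 h). F11, its paralog in the intrinsic pathway and its neighbour 4.66 kb away on chromosome 8, was lower by less (-0.71 and -0.39; adjusted p = 5.93e-05 and 0.0163), and its call at 24 h was lost without sham 3. F12, the zymogen that starts contact activation, was lower by a small amount with little spread, at 220.2 ± 24.4 FPKM in PHx48, 266 ± 11.3 in PHx24 and 321 ± 34.4 in sham (log2 fold changes -0.52 and -0.25). Of the kininogens, the substrates of kallikrein, Kng1 was lower at 48 h (-0.59, adjusted p = 0.0205) and not called at 24 h (-0.38, adjusted p = 0.146). Kng2 was not called at 48 h (0.06, adjusted p = 0.737) and was higher at 24 h (0.34, adjusted p = 0.0359), and the difference between these genes was not tested. Kng1's call was lost without sham 4 or sham 5. Kng2's was lost without any 1 of sham 1, sham 2, sham 3, PHx24 5, PHx24 6 or PHx24 7, and by DESeq2 (adjusted p = 0.055). Limma on log2(FPKM + 1) and on log2(FPKM + 0.1) did not call it either (adjusted p = 0.0653 and 0.0638). Nor was it called with the compared groups alone (adjusted p = 0.0693) or with the replicate block (adjusted p = 0.0665). Without the 4 libraries with muscle or pancreas markers Kng2 was 0.16 (adjusted p = 0.456). In TPM Kng2 was called higher at 48 h (limma). Kng1 and Kng2 lie 28.4 kb apart on chromosome 16. Of their 50-base stretches, 17.2% and 19.4% also occur in other genes, and each shares most with the other. Of the exon bases of Klkb1, 43.2% also belong to Gm45753, a locus listed near 0 in every library.

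F2, which encodes prothrombin, lay between 234 and 339 FPKM with a median of 306 in PHx48 and between 274 and 325 FPKM with a median of 305 in PHx24, against 340.3, 411, 442, 441 and 458 FPKM in sham 1 to 5. F2 in PHx48 and in PHx24 was below every sham library (log2 fold change -0.49, SE 0.11, adjusted p = 9.13e-04 at 48 h; log2 fold change -0.43, SE 0.11, adjusted p = 0.00331 at 24 h). F9, the protease zymogen lacking in haemophilia B, was lower at 48 h (-0.43, adjusted p = 0.0206), but not without sham 4 or sham 5. At 24 h F9 was not called, but it was called lower by DESeq2 (-0.37, adjusted p = 0.0486), with the replicate block (-0.39, adjusted p = 0.0391), without sham 1 (-0.43, adjusted p = 0.0291) and without the 4 libraries with muscle or pancreas markers (-0.53, adjusted p = 0.0154). F5, F7 and F10, the cofactor and the proteases of the common and extrinsic pathways, were not called at either time (from -0.48 for F7 to -0.16 for F10). F7 was called lower at 48 h by DESeq2 (-0.51, adjusted p = 0.0472). When the compared groups were fitted alone, F7 was called lower at 48 h (-0.49, adjusted p = 0.00301) and F5 and F7 at 24 h. F13b, the carrier subunit of the fibrin cross-linking factor XIII, was called at 24 h (-0.49, adjusted p = 0.0381) and was lost in 6 of 12 fits without 1 library (sham 4, sham 5 and PHx24 2, 3, 4 and 5). It was also lost by limma on log2(FPKM + 1) and on log2(FPKM + 0.1) (adjusted p = 0.0512 and 0.0527).

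The anticoagulant genes were split. Proc, the zymogen of protein C, which inactivates factors Va and VIIIa, lay between 191 and 299 FPKM with a median of 229 in PHx48 and between 230.5 and 292 FPKM with a median of 277 in PHx24, against 353, 426, 459, 500.4 and 537 FPKM in sham 1 to 5. No resected library without etomoxir reached the sham range (log2 fold change -0.91, SE 0.14, adjusted p = 1.26e-05 at 48 h; log2 fold change -0.74, SE 0.14, adjusted p = 1.74e-04 at 24 h). Protein S, the cofactor of activated protein C, was higher: Pros1 (GRCm38 chromosome 16, 62854307 to 62929346) lay between 19.4 and 22.8 FPKM with a median of 20.4 in PHx48 and between 15.3 and 21 FPKM with a median of 18.3 in PHx24, against 12.9, 15.3, 16.8, 16.5 and 15.6 FPKM in sham 1 to 5. The PHx48 libraries were all above sham and the PHx24 libraries overlapped it (log2 fold change 0.45, SE 0.08, adjusted p = 8.20e-05 at 48 h; log2 fold change 0.26, SE 0.08, adjusted p = 0.0133 at 24 h). The call at 24 h was lost without sham 1 (0.19, adjusted p = 0.0885), and without the 4 libraries with muscle or pancreas markers (0.16, adjusted p = 0.242). It was also lost when the compared groups were fitted alone (0.24, adjusted p = 0.0507). Serpinc1, antithrombin, was lower at both times, with log2 fold changes of -0.45 and -0.37 (adjusted p = 0.0011 and 0.00572). In TPM these were -0.08 and -0.15 (limma, adjusted p = 0.315 and 0.0706), and with no filter the call at 24 h was lost (adjusted p = 0.0579). Serpinc1 shares 34.4% of its exon bases with Zbtb37 on the other strand, which averaged 1.17 FPKM in PHx48 and 0.732 in sham. Serpind1, heparin cofactor II, and Proz, protein Z, were not called. When the compared groups were fitted alone, both were called lower at 24 h and Proz at 48 h as well.

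Of the 4 fibrinolysis members, 1 was lower at each time. Plg, plasminogen, averaged 363 ± 55.5 FPKM in PHx48, 375 ± 31.7 in PHx24 and 477 ± 52.5 in sham, and was called at 48 h (-0.38, adjusted p = 0.0458). That call was lost in 7 of 12 fits without 1 library (sham 2, 3 and 5 and PHx48 3, 4, 5 and 6), and it was also lost without the 4 libraries with muscle or pancreas markers. With the replicate block it was lost too (-0.39, adjusted p = 0.079). At 24 h Plg was called lower by DESeq2 (-0.36, adjusted p = 0.0425) and when the compared groups were fitted alone (-0.34, adjusted p = 0.0106). Plg shares 11.3% of its exon bases with Slc22a3 on the other strand. Serpinf2, alpha 2-antiplasmin, was lower at 24 h, with 319 ± 17.2 FPKM in PHx24 and 427 ± 56.1 in sham and no overlap (log2 fold change -0.40, SE 0.12, adjusted p = 0.0121), and was not called at 48 h (-0.12). Cpb2, the carboxypeptidase that slows fibrinolysis, and Vtn were not called at either time. Cpb2 was called at 48 h with the replicate block and without the 4 libraries with muscle or pancreas markers.

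Between the times, 3 of the 4 lectin pathway members changed. Mbl1 and Mbl2 encode the mouse mannose-binding lectins, which recognise microbial sugars, and Masp1 a protease that they carry. Mbl2 (GRCm38 chromosome 19, 30232928 to 30239685) was higher at 48 h than at 24 h. It lay between 427 and 611 FPKM with a median of 483 in PHx48 and between 105 and 337 FPKM with a median of 269.6 in PHx24. In sham 1 to 5 it was 303, 297, 348, 423 and 337 FPKM. All PHx48 libraries exceeded all PHx24 and all sham libraries (log2 fold change 1.07, SE 0.26, adjusted p = 0.00782 for PHx48 over PHx24). Against sham neither time was called in the fit of all 27 libraries (0.60 at 48 h, adjusted p = 0.108, and -0.48 at 24 h, adjusted p = 0.2). In TPM Mbl2 was called higher than in sham at 48 h (limma, 0.95, adjusted p = 0.00884). It was also called higher there when the compared groups were fitted alone (0.58, adjusted p = 0.00162). Mbl1 ran the opposite way, between 89.5 and 159.9 FPKM with a median of 107 in PHx48 and between 155 and 269 FPKM with a median of 215 in PHx24, with 140.0, 171, 225, 232 and 252 FPKM in sham 1 to 5. It was lower at 48 h than at 24 h (log2 fold change -0.87, SE 0.22, adjusted p = 0.00954) and than in sham (-0.77, adjusted p = 0.0122). Masp1 was lower too, at 11.3 ± 0.87 FPKM in PHx48, 16.7 ± 1.67 in PHx24 and 15.8 ± 1.65 in sham, with no overlap of PHx48 with either group (log2 fold change -0.57, SE 0.08, adjusted p = 5.72e-05 for PHx48 over PHx24; -0.47 against sham). At 24 h Masp1 was not called against sham (0.11, edgeR, adjusted p = 0.401), but in TPM it was called higher (0.30, limma, adjusted p = 0.034). At 48 h its difference from sham in TPM was -0.11 (limma, adjusted p = 0.428).

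In all, 1 member was higher (Mbl2) and 4 lower (C3, Masp1, Mbl1 and F12) in PHx48 than in PHx24, where 6.19% of all genes tested were higher and 5.41% lower. In TPM 3 members were higher (Mbl2, Pros1 and Serpinf2) and 3 lower (C3, Masp1 and Mbl1), against 13.7% and 2.13% of all genes. The groups did not overlap for 3 members (C3, Masp1 and Mbl2), against 4.92% of all genes. C3 was lower, with a log2 fold change of -0.61 (adjusted p = 0.00913), with no overlap between the times, and F12 had one of -0.28 (adjusted p = 0.00841). None of these 5 calls was lost when any 1 library was left out. The call of F12 was lost with no filter on low values (-0.29, edgeR, adjusted p = 0.0744). It was also lost in TPM (-0.13, limma, adjusted p = 0.122). Masp2, the lectin-pathway protease that cleaves C4 and C2, was called against sham at 24 h (-0.32, adjusted p = 0.0383) but lost in 8 of 12 fits without 1 library (sham 2, 3, 4 and 5 and PHx24 2, 5, 6 and 7). At 48 h it was -0.29 (adjusted p = 0.0563). There it was called lower by DESeq2 (-0.32, adjusted p = 0.031), without the 4 libraries with muscle or pancreas markers (-0.36, adjusted p = 0.0439), without sham 1 (-0.38, adjusted p = 0.0174) and without PHx48 5, PHx48 6 or PHx48 7. It shares 54.9% of its exon bases with Tardbp on the other strand, and the counting is not stated to use strand.

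**Figure D3:**
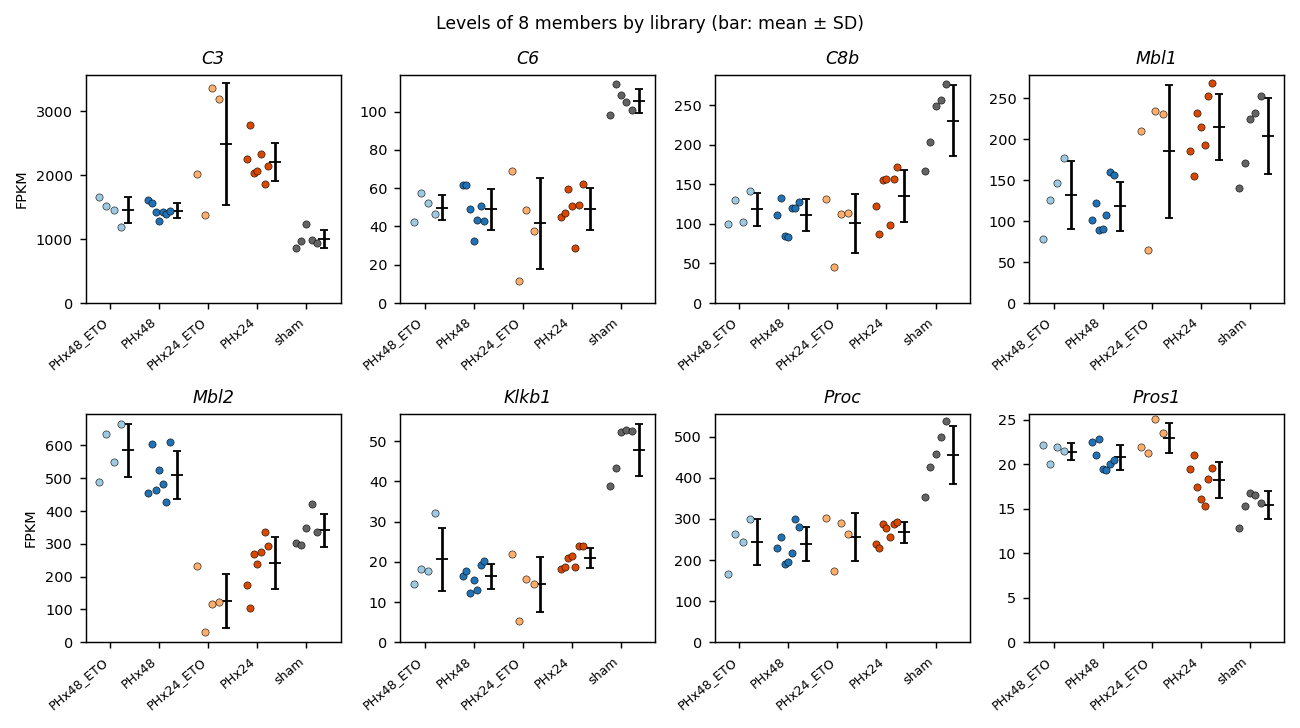
FPKM of 8 members in every library, with the groups ordered PHx48_ETO, PHx48, PHx24_ETO, PHx24 and sham; the bar beside each group is its mean with 1 SD. Mbl2 is highest and Mbl1 lowest in the 48 h groups, and the lowest point of PHx24_ETO is PHx24_ETO 2 in each of the 8 panels.

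Complement was set against coagulation and fibrinolysis over the groups. At 48 h, 11 of the 19 complement and 9 of 20 coagulation and fibrinolysis members were lower, with medians of -0.47 and -0.35; at 24 h, 8 of 19 and 8 of 20 were lower, with medians of -0.32 and -0.33. Over all genes tested, 17.0% were lower at 48 h and 15.8% at 24 h. In TPM, 5 complement and 4 coagulation and fibrinolysis members were lower at 48 h (medians -0.11 and -0.0037), and 5 and 3 at 24 h (medians -0.11 and -0.13), against 5.29% and 7.24% of all genes. C3 took 0.806 ± 0.0874% of the counts of a library in PHx48, 1.14 ± 0.172% in PHx24 and 0.468 ± 0.0768% in sham (SD). The other 18 complement members together took 0.800 ± 0.0783% in PHx48, 0.799 ± 0.0717% in PHx24 and 0.894 ± 0.101% in sham. The 20 coagulation and fibrinolysis members took 1.37 ± 0.104% in PHx48, 1.39 ± 0.0502% in PHx24 and 1.53 ± 0.0949% in sham. The share of C3 was thus higher after resection while both other shares were lower on average. C3 made up 50.2 ± 2.84% of the complement counts in PHx48, 58.5 ± 5.19% in PHx24 and 34.3 ± 2.14% in sham. The mean log2(FPKM + 1) of the complement members minus that of the coagulation and fibrinolysis members, which weights each gene equally, was -0.355 ± 0.0472 in PHx48, -0.303 ± 0.0535 in PHx24 and -0.339 ± 0.0703 in sham, with overlapping ranges. These shares and differences are descriptions and were not tested.

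**Figure D4:**
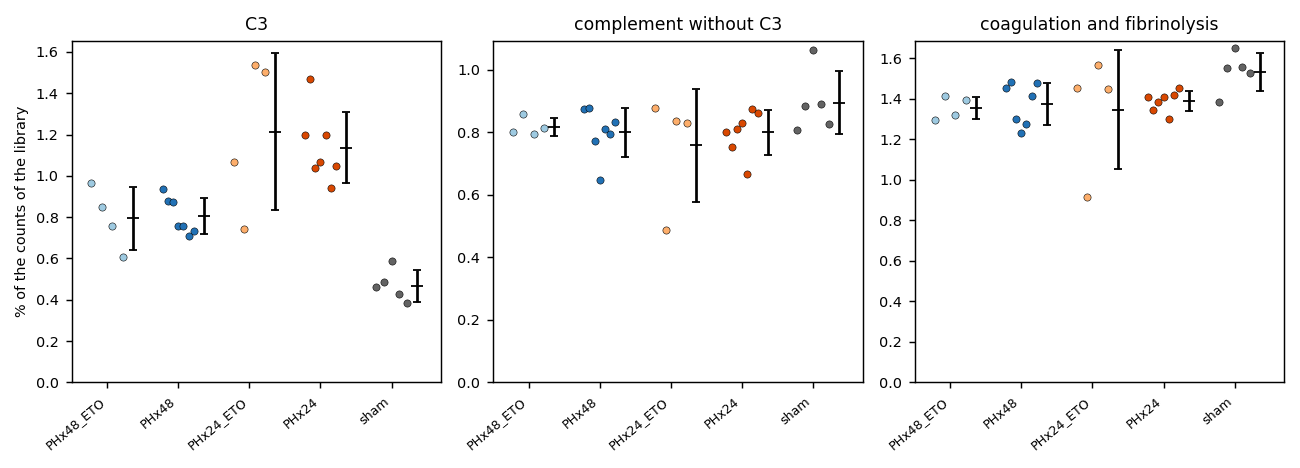
Share of each library's counts taken by C3, by the other 18 complement members and by the 20 coagulation and fibrinolysis members; bars are the mean with 1 SD. C3 is lowest in sham and highest at 24 h, while the other shares differ little between groups except for the low point of PHx24_ETO 2.

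With etomoxir 1 member was called at 24 h. Pros1 was higher with it, 22, 21.3, 25 and 23.5 FPKM in PHx24_ETO 1 to 4 against values between 15.3 and 21 FPKM with a median of 18.3 in PHx24, with no overlap (log2 fold change 0.32, SE 0.08, adjusted p = 0.0385). It was the one member called higher and none was called lower by edgeR, where 1.58% of all genes tested were higher and 1.33% lower (2.9% in either direction). The groups did not overlap for 2 members, C8g and Pros1, against 3.24% of all genes. At an unadjusted p under 0.05, 6 members were lower and 3 higher, where 19.4% of all genes were under it in either direction. DESeq2 called Pros1 higher and C2 and Mbl2 lower, and limma on log2(FPKM + 1) called Pros1 alone. In TPM 0 members were higher and 2 lower, C8g and Mbl2, against 0.808% and 2.17% of all genes. The Pros1 call was lost with any 1 of PHx24 3, PHx24 4, PHx24 5, PHx24 6, PHx24_ETO 2, PHx24_ETO 3 or PHx24_ETO 4 left out (log2 fold change 0.27 to 0.35, highest adjusted p 0.143), and with the replicate number as a block (0.28, adjusted p = 0.0888).

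Mbl2, the member with the largest log2 fold change in size, had 231, 30.4, 117 and 124 FPKM in PHx24_ETO 1 to 4 against values between 105 and 337 FPKM with a median of 269.6 in PHx24. The groups overlapped, and the difference was not called (log2 fold change -0.96, SE 0.32, adjusted p = 0.0908). Without PHx24_ETO 1 it was called (-1.45, adjusted p = 0.00468), as it was without PHx24 2 (-1.09, adjusted p = 0.0379). Klkb1 (-0.55), C8g (-0.52), C2 (-0.51) and C4bp (0.49) followed in size and were not called, with adjusted p between 0.0843 and 0.2. Without PHx24_ETO 1, Klkb1 (-0.83, adjusted p = 0.0322) and C2 (-0.59, adjusted p = 0.0405) were called as well.

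PHx24_ETO 2 was the library with low levels of most members. C3 was 2021, 1372, 3368 and 3190.0 FPKM, Klkb1 21.9, 5.34, 15.8 and 14.6 FPKM and C6 68.9, 11.5, 48.4 and 37.7 FPKM in PHx24_ETO 1 to 4. The value of PHx24_ETO 2 was the lowest in each case. With this library the median log2 fold change of the 39 members was -0.11 and 24 of 39 were below 0. Without it the median was 0.071 and 16 were below 0. Mbl2 was then -0.63, Klkb1 -0.28 and C2 -0.31, none of them called. Without it no member was called lower and 1 higher, Serpinf2 (0.47, adjusted p = 0.0278). The exceptions in PHx24_ETO 2 included F11, at 49.2 FPKM the highest of its group. The hepatocyte marker sum of this library, 37708 FPKM, lay within that of the other PHx24_ETO libraries (32220.4 to 38076.5), and its adipocyte marker sum over 6 genes was 164 FPKM against 12 to 15.5 FPKM in the others. Adipocyte markers were not high in this library alone. Their sum was 194 FPKM in sham 1, 139 in PHx48 3, 70.6 in PHx24 1 and 60.9 in sham 2. The part of adipocyte RNA in the result was not tested.

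**Figure D5:**
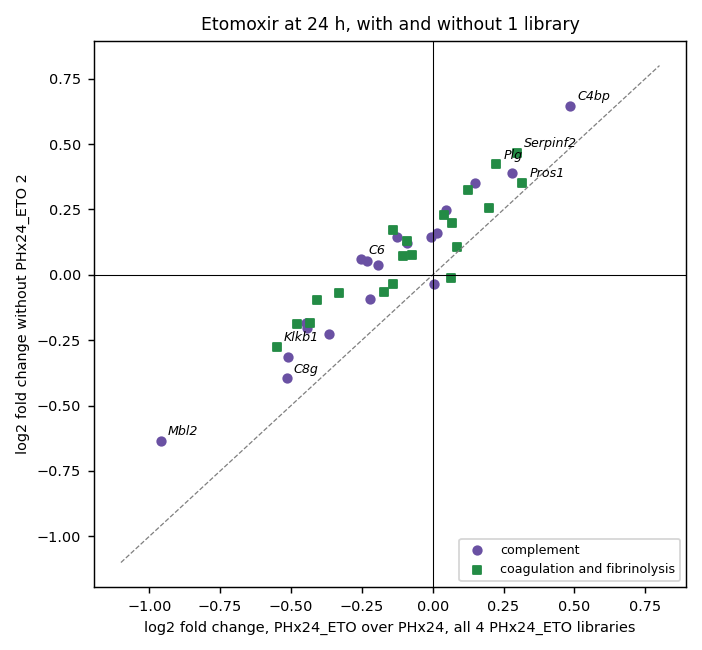
Log2 fold change of each member in PHx24_ETO over PHx24 with all 4 PHx24_ETO libraries (horizontal) and without PHx24_ETO 2 (vertical); circles are complement and squares coagulation and fibrinolysis members, and the dashed line marks equal values. All points but those of Masp1 and F11 lie above the line, and Mbl2 is lowest on both axes.

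At 48 h no member was called in PHx48_ETO over PHx48 by edgeR, DESeq2 or limma. An unadjusted p under 0.05 was found for 0 of 39 members, against 8.11% of all genes. Over all genes tested, 0.21% were called in either direction by edgeR (0.129% higher and 0.0808% lower). In TPM 0.097% of all genes were higher and 0.145% lower. No member had groups without overlap, against 2.22% of all genes. The median log2 fold change of the members was 0.03, and single members lay between -0.42 (F7) and 0.33 (Klkb1). C3 was 1662, 1519, 1448 and 1190.4 FPKM in PHx48_ETO 1 to 4, against a PHx48 range of 1274 to 1610.0 FPKM, and Mbl2 was 489, 634, 550.1 and 665 FPKM against a PHx48 median of 483. Klkb1 was 14.4, 18.3, 17.7 and 32.1 FPKM in PHx48_ETO 1 to 4, against values between 12.1 and 20.2 FPKM with a median of 16.5 in PHx48, and C6 42.4, 57.5, 52.3 and 46.7 FPKM, against values between 32.6 and 61.7 FPKM with a median of 49.3. For each of these members the groups overlapped. The effect of etomoxir at 48 h minus its effect at 24 h was called for no member (edgeR, DESeq2 and limma). For this difference 4 members had an unadjusted p under 0.05, against 8.6% of all genes. By edgeR 0.0162% of all genes were called (0.00808% in TPM), all of them higher. The difference was largest for Mbl2 (log2 fold change 1.15, SE 0.43, adjusted p = 0.44). It was called for Mbl2 when PHx24_ETO 1 was left out (1.64, adjusted p = 0.0313).

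The other genes of these systems, receptors, regulators, pattern-recognition molecules and clotting genes made partly outside hepatocytes, were described from a list of 62, of which 42 passed the filter. Of the 21 other complement genes tested, 9 were lower and 1 higher in PHx48 than in sham, and 7 lower and 1 higher in PHx24 than in sham. Over all genes, 17.0% were lower and 19.5% higher at 48 h, and 15.8% lower and 19.1% higher at 24 h. Colec11, a collectin that can start the lectin pathway, averaged 9.76 ± 1.73 FPKM in PHx48, 6.62 ± 2.45 in PHx24 and 15.3 ± 1.01 in sham (log2 fold changes -0.63 and -1.19). Cd59a, the membrane inhibitor of the attack complex, was lower at both times (-1.0 and -0.43), and Clu, the fluid-phase inhibitor clusterin, was higher (0.68 and 0.51). In TPM, 4 of the 21 were lower and 2 higher at 48 h, and 4 lower and 3 higher at 24 h, against 5.29% and 46.0% of all genes at 48 h and 7.24% and 30.7% at 24 h.

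Of the 21 other coagulation genes tested, 4 were lower and 4 higher in PHx48 than in sham, and 4 lower and 7 higher in PHx24 than in sham. The shares at 48 h, 19.0% in each direction, were near those of all genes (17.0% lower and 19.5% higher). At 24 h 15.8% of all genes were lower and 19.1% higher. In TPM 1 was lower and 8 higher at 48 h, and 3 lower and 9 higher at 24 h, against the shares of all genes just given for TPM. The higher ones at 24 h included Thbd, thrombomodulin, the endothelial receptor that lets thrombin activate protein C (7.02 ± 3.34 FPKM in PHx24 and 1.5 ± 1.11 in sham; log2 fold change 2.20, SE 0.40, adjusted p = 1.13e-04). Hgfac, a protease that activates hepatocyte growth factor, was lower, at 36 ± 4.6 FPKM in PHx24 and 73.3 ± 10.3 in sham (-1.01, adjusted p = 4.44e-06). Between the times, 1 of the 21 other complement genes was higher (C4a, 1.30) and 3 lower in PHx48 than in PHx24, and of the other coagulation genes 1 was lower, Thbd (-1.07). With etomoxir, none of the 42 was called at either time by edgeR.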

How the data were processed

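RNA of 27 mouse liver libraries was sequenced from polyadenylated RNA. The authors deposited raw counts and FPKM per gene in 1 table, which gives gene names and GRCm38 positions. Per the submitters' processing notes, the tools were DESeq2 1.20.0, featureCounts 1.5.0-p3, HISAT2 2.0.5, fastp and CASAVA 1.8. For their roles, the annotation release and the strand setting, nothing was stated in the labels. The deposited FPKM equal the count per kilobase divided by a size factor and by a constant common to all libraries, so they are already scaled between libraries.

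Here edgeR 4.0.16 (R 4.3.3; TMM scaling, quasi-likelihood F test, group as the one term) was fitted on the deposited counts of all 27 libraries. It covered the 12376 genes that reached an FPKM of 1 in 4 or more libraries, with Benjamini-Hochberg adjustment over all of them. The biological coefficient of variation was 0.266. The 6 comparisons include the difference of the etomoxir effects. TPM were made from the deposited FPKM. Alternatives were DESeq2 1.42.0, limma 3.58.1 on log2(FPKM + 1), log2(FPKM + 0.1) and log2(TPM + 1), no filter, the compared groups alone, a replicate block, no libraries with muscle or pancreas markers, and each library left out. The edgeR and limma fits were tested on simulated data with less spread and far fewer changed genes than these data. That test covers the code and does not bear on the choice between FPKM and TPM scaling. Overlaps between genes come from GENCODE M21 coordinates, which were those of the table for 37 members. The members and lists were chosen with earlier results of these data known. Values are printed for the called members with the largest changes and for C3, Hc, C9, F2, Plg, Serpinc1 and Klkb1.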

Additional observations from a re-analysis of the deposited data

Results flagged for a closer look

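Of 195 sets of values checked, 1 for each member and group, 16 held a library whose gap to the nearest other library was large against the range of its group (Dixon's 95% critical value). Chance flags about 1 in 20 such sets. The library PHx24_ETO 2 gave 10 of the 16, each time as the lowest. Its FPKM against the range of the other 3 PHx24_ETO libraries were, for the complement members, C1s1 (45.7 against 101 to 103), C2 (2.6 against 5.09 to 5.49), C8a (106 against 251 to 261), Hc (54 against 163 to 178), Cfi (161 against 251 to 266), Masp2 (28.9 against 47 to 48.1), Mbl1 (64.8 against 211 to 234), and for the coagulation members F7 (11.3 against 47.4 to 53.6), F9 (30.5 against 54.9 to 58.5) and F10 (54.2 against 152 to 172).

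The remaining flags were spread over other libraries. C1s1 in PHx48_ETO 3 was 80.4 FPKM, below the other PHx48_ETO libraries at 87.6 to 88.4 FPKM. C8a in PHx48 4 was 145 FPKM, below the other PHx48 libraries at 194 to 225 FPKM. Hc in PHx24 5 was 109 FPKM, below the other PHx24 libraries at 143 to 168 FPKM. Masp1 in sham 3 was 18.7 FPKM, above the other sham libraries at 14.7 to 15.5 FPKM. F12 in PHx48_ETO 1 was 178 FPKM, below the other PHx48_ETO libraries at 207 to 210.1 FPKM. Serpinf2 in PHx48_ETO 1 was 369 FPKM, below the other PHx48_ETO libraries at 409 to 418 FPKM.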

How the results depend on the processing

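Of the 47 calls of members, 46 held with DESeq2, 45 with limma on log2(FPKM + 1) and on log2(FPKM + 0.1), 44 with the compared groups alone, 43 without the 4 libraries with muscle or pancreas markers, 33 with no filter and 26 with limma on log2(TPM + 1). None of the 47 reversed. In PHx24 over sham, 1 member was higher with the compared groups alone and 1 without the 4 libraries (3 in the reported fit), and 9 were lower with no filter and 8 in TPM (16 in the reported fit). In PHx48 over sham, 5 were higher in TPM and 1 without the 4 libraries (2 in the reported fit), and 9 were lower in TPM (20 in the reported fit). In PHx48 over PHx24, 3 were higher in TPM and 3 with the compared groups alone (1 in the reported fit). In PHx24_ETO over PHx24, 0 were higher with no filter, in TPM, with the compared groups alone and with the block (1 in the reported fit), and 1 was lower by limma on log2(FPKM + 0.1), 2 in TPM and 2 by DESeq2 (0 in the reported fit). In limma on log2(TPM + 1), 3 members that were not called turned above 0 against sham: Hc at 24 h (0.10), Cfi at 48 h (0.054) and Masp2 at 48 h (0.056). The cause of these differences was not tested.

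With each library left out in turn, 36 of the 47 calls were never lost and none reversed. Members called higher numbered 1 to 3 and lower 13 to 18 in PHx24 over sham, 2 and 17 to 22 in PHx48 over sham, 1 to 2 and 4 to 5 in PHx48 over PHx24, 0 to 1 and 0 to 3 in PHx24_ETO over PHx24, 0 and 0 in PHx48_ETO over PHx48, and 0 to 1 and 0 for the difference of the etomoxir effects. The count of higher members was 1 without sham 1 in PHx24 over sham and 2 without PHx24 2 in PHx48 over PHx24. In PHx24_ETO over PHx24, 3 were lower without PHx24_ETO 1 and 1 without PHx24 2.

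Groups share replicate numbers, and neither the labels nor the correlations settle whether the numbers pair the samples. Between PHx24 and sham, same-numbered libraries correlated in their deviations from the group means by 0.0257 to 0.655, with 4 of 5 pairs over 0.1. The median there was 0.118, against -0.0253 for libraries of other numbers. Between PHx48 and sham the correlations were -0.232 to 0.167, with medians of -0.0175 and -0.0227. With the replicate block 44 of the 47 calls held, with 2 higher and 19 lower members in PHx24 over sham, 2 and 20 in PHx48 over sham, 1 and 4 in PHx48 over PHx24 and 0 in PHx24_ETO over PHx24. Depth limits the members little, except for Cfb and C2, which had the lowest FPKM. The exon bases shared with Gm20547 make the levels of Cfb and C2 uncertain as well.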
